A study of Homo sapiens with 45 samples.

Results

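Mitochondrial ribosomal protein genes encode the protein subunits of the mitochondrial ribosome, and 75 of them were followed across 45 expression arrays of 3 human cancer cell lines. They were chosen as the probe sets annotated to a single gene symbol that begins with MRPL or MRPS and a number, leaving out pseudogenes and antisense genes. The probe set with the highest mean over all arrays stood for each gene. This gave 75 of 19775 genes with a single symbol, of which 48 were MRPL and 27 were MRPS genes. All 75 passed the filter on low values that left 15511 genes for testing. The members were represented by 140 probe sets, and 37 members had more than 1. MRPS24 and MRPL53 were not followed because their probe sets carry a second gene's symbol.

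HEY and SKOV3 are ovarian cancer cell lines and PC3 is a prostate cancer cell line. Cells of each line were transfected by lipid (Lipofectamine) with precursor RNA at 33 nM, which was that of miR-203a, that of miR-205, that of miR-429 or the negative control miR-NC. RNA was extracted after 48 h. A further set of arrays in each line is labelled untransfected. Every group held 3 arrays, so 36 arrays were of transfected cells and 9 were labelled untransfected. Each RNA came from a whole culture, so a change in every cell and a change in some of the cells cannot be told apart. The labels do not say that replicates were separate cultures, so p-values reflect how far these particular arrays scatter, which may be technical.

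The 3 microRNAs are small RNAs that guide silencing complexes to messenger RNAs through their seed, bases 2 to 8 of the mature strand. Their mature sequences in RefSeq (GRCh38.p14) are shown because the seeds define the 3 treatments, with the seed in capitals. The labels do not name the arm, so the strand given for miR-203a and miR-205 is the one named -3p or -5p in RefSeq. miR-203a lies at chr14:104117469-104117490, miR-205 at chr1:209432166-209432187 and miR-429 at chr1:1169055-1169076, all on the plus strand. The 3 seeds differ from each other.
hsa-miR-203a-3p: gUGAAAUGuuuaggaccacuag
hsa-miR-205-5p: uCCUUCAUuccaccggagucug
hsa-miR-429: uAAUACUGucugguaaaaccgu

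The mitochondrial ribosome sits in the matrix and translates the few proteins encoded by mitochondrial DNA, all of them subunits of the respiratory chain and ATP synthase. Its RNAs come from mitochondrial DNA, whereas every protein subunit is encoded in the nucleus, made in the cytosol and imported. MRPS genes mostly encode the small subunit, which reads the messenger RNA, and MRPL genes the large subunit, which joins amino acids. Some of the proteins have counterparts in bacterial ribosomes and others occur only in mitochondrial ribosomes.

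Levels are RMA values, which are log2 intensities, so that a difference of 1 is a 2-fold change. The median over array values ran between 4.49 and 4.98 among the 45 arrays. Arrays of a transfected group correlated at 0.981 or above, and no pair of arrays correlated above 0.997, so none was a copy of another. Genes that marked HEY, SKOV3 or PC3 among the transfected arrays went against the labels of the untransfected arrays. None of 45 HEY-specific genes was on in the arrays labelled untransfected HEY, against 90.5% of 84 SKOV3-specific genes. All 45 HEY-specific genes and none of 133 PC3-specific genes were on in the arrays labelled untransfected PC3. In the arrays with the label untransfected SKOV3, 32.1% of SKOV3-specific genes were on, and so were 41.4% of those specific to PC3. No comparison below therefore sets a treatment against the arrays labelled untransfected, which entered the fit only through the shared estimate of the spread. ERBB2, which SKOV3 cells carry in extra copies, stood at 11.34 in SKOV3 miR-NC, against 6.83 in HEY miR-NC and 6.37 in PC3 miR-NC. HOXB13, a prostate lineage gene, did not set PC3 apart, at 6.56 in PC3 miR-NC, 6.70 in SKOV3 miR-NC and 4.81 in HEY miR-NC. It stood at 11.73 in the arrays labelled untransfected SKOV3. Among endothelial and fibroblast markers, PC3 miR-NC had PECAM1 at 9.05, COL1A1 at 12.46 and LUM at 9.17. HEY miR-NC had CDH5 at 9.89 and COL1A1 at 10.06, and SKOV3 miR-NC had COL1A1 at 8.88. VWF and DCN stayed at or below 4.90 in every miR-NC group. The line-specific genes were chosen by the labels of the transfected arrays, so they cannot check those labels.

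The median level of the 75 members differed between lines under miR-NC by more than among arrays of a group. Between treatments of a line it did so in some cases only. In HEY cells the medians of the 3 arrays were 9.81, 9.97 and 9.89 with miR-203a, 10.67, 10.82 and 10.67 with miR-205, and 10.75, 10.65 and 10.68 with miR-429, against 9.65, 9.67 and 9.81 with miR-NC. In SKOV3 cells they were 10.40, 10.49 and 10.51 with miR-203a, 10.46, 10.39 and 10.54 with miR-205, and 10.61, 10.47 and 10.45 with miR-429, against 10.33, 10.37 and 10.25 with miR-NC. In PC3 cells they were 9.94, 9.71 and 9.61 with miR-203a, 9.52, 9.47 and 9.67 with miR-205, and 9.11, 9.15 and 8.89 with miR-429, against 9.03, 8.91 and 9.07 with miR-NC. In 7 of the 9 microRNA groups every array lay above every miR-NC array of its line, in SKOV3 cells by small amounts, and HEY miR-203a and PC3 miR-429 overlapped with miR-NC. The arrays labelled untransfected had mean medians of 9.95 (labelled HEY), 10.38 (labelled SKOV3) and 10.20 (labelled PC3).

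**Figure D1:**
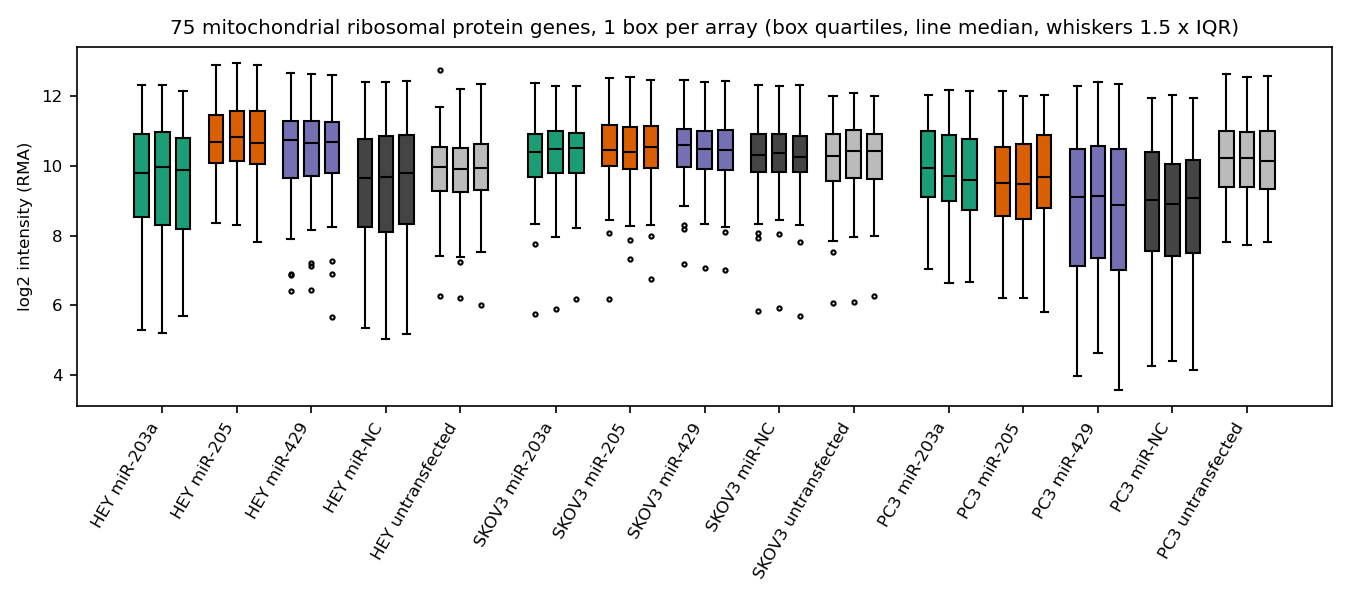
Each box shows the log2 intensities of the 75 members on 1 array (box quartiles, line median, whiskers to 1.5 times the interquartile range, points beyond), with the treated groups left of miR-NC in each line. The member medians of HEY miR-205 (mean 10.72) and HEY miR-429 (10.69) stand above HEY miR-NC (9.71), PC3 miR-203a (9.75) and PC3 miR-205 (9.55) stand above PC3 miR-NC (8.91 to 9.07 by array), and the SKOV3 groups lie between 10.32 and 10.51.

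Control probe sets for the housekeeping gene GAPDH moved between the same groups. The probe set for the middle of GAPDH averaged 9.56 ± 0.36 in HEY miR-203a, 13.12 ± 0.06 in HEY miR-205 and 10.84 ± 0.17 in HEY miR-429, against 9.18 ± 0.27 in HEY miR-NC (SD, n = 3 each). It averaged 11.25 ± 0.29 in PC3 miR-203a, 10.47 ± 0.42 in PC3 miR-205 and 6.71 ± 0.76 in PC3 miR-429, against 7.20 ± 0.96 in PC3 miR-NC. In the SKOV3 groups it lay between 13.72 and 13.89. The groups in which the member median stood above miR-NC of their line by the most were those in which this probe set did so too. The probe set for the 5′ end of GAPDH averaged 12.28 in HEY miR-205 and 6.25 in HEY miR-429, against 8.37 in HEY miR-NC, and 9.99 in PC3 miR-203a and 8.70 in PC3 miR-205, against 5.04 in PC3 miR-NC. The probe set for the 3′ end averaged 13.76 in HEY miR-205 and 13.59 in HEY miR-429, against 12.28 in HEY miR-NC. For actin, the 5′ probe set averaged 8.44 in PC3 miR-203a and 7.45 in PC3 miR-205, against 4.72 in PC3 miR-NC, and 7.46 in HEY miR-205 and 5.27 in HEY miR-429, against 6.24 in HEY miR-NC. The 3′ probe set of actin stayed between 13.41 and 14.06 in these 6 groups. The 5′ probe sets of both genes were thus higher than with miR-NC in 3 of the 4 groups in which most members rose, and lower in HEY miR-429. These probe sets report on RNA length as well as on the gene, and their part in the member results was not tested.

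**Figure D2:**
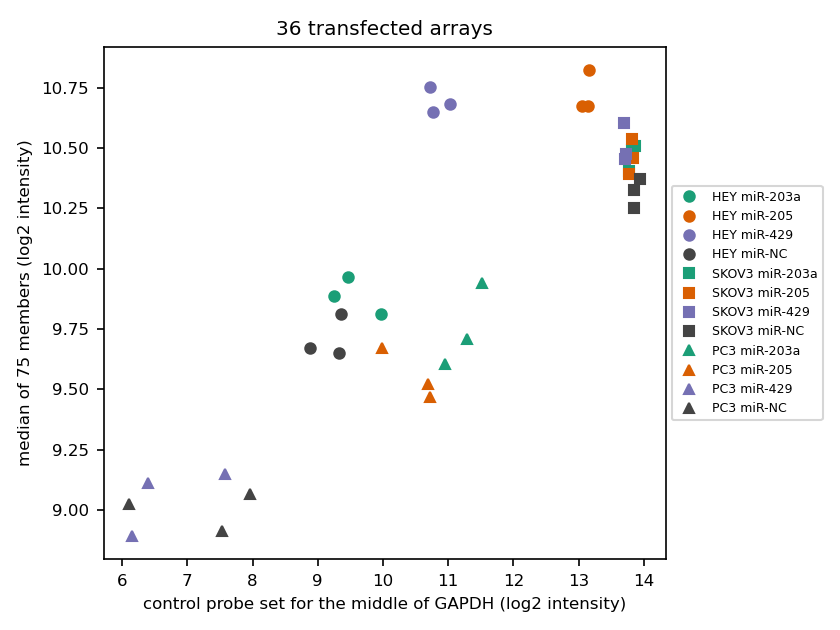
Each point is 1 of the 36 transfected arrays, with the control probe set for the middle of GAPDH on the x axis and the median of the 75 members on the y axis (both log2 intensity), coloured by treatment with a shape for each line. The SKOV3 arrays sit together at the right, between 13.72 and 13.89 by group mean, while PC3 miR-NC and PC3 miR-429 sit lowest on both axes.

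With miR-203a most mitochondrial ribosomal protein genes were higher than with miR-NC in PC3 cells, and few were in the ovarian lines. The 5′ probe sets of GAPDH and actin also differed between these PC3 groups, so the microRNA and RNA length cannot be told apart. In PC3 cells 58 of 75 members were higher and 2 lower than with miR-NC (limma, adjusted p under 0.05), where 31.2% of all tested genes were called higher and 25% lower. Their median difference was 0.93, against 0.06 over all tested genes. A call with a difference of 1 or more was made for 34 members, and for 3240 of all 15511 tested genes. The higher members included 23 of 29 large subunit proteins with a bacterial counterpart and 13 of 16 such small subunit proteins. Among the mitochondria-specific proteins, 15 of 21 in the large and 7 of 9 in the small subunit were higher.

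MRPL4, whose bacterial counterpart lines the peptide exit tunnel, measured 9.88, 9.49 and 9.33 in PC3 cells with miR-203a, against 6.20, 6.52 and 6.27 with miR-NC. All treated arrays lay above the controls, a difference of 3.24 ± 0.23 (SE) or 9.42-fold (limma adjusted p = 6.54e-14). MRPL27, the counterpart of a bacterial protein beside the site of peptide bond formation, measured 9.98, 9.75 and 9.46 with miR-203a, against 7.05, 7.16 and 7.08 with miR-NC. MRPL12, which forms the flexible stalk that recruits translation factors, measured 7.53, 7.37 and 7.19 with miR-203a, against 5.15, 4.83 and 4.40 with miR-NC. The groups did not overlap for either gene, and the differences were 2.64 ± 0.16 for MRPL27 (limma adjusted p = 5.43e-16) and 2.57 ± 0.20 for MRPL12 (limma adjusted p = 4.89e-13). MRPL38, a large subunit protein found only in mitochondrial ribosomes, differed by 2.68 ± 0.22. The large subunit protein MRPL57 fell, with 10.98, 10.97 and 10.96 in PC3 miR-203a against 11.68, 11.59 and 11.53 in PC3 miR-NC, a difference of -0.63 ± 0.09 (limma adjusted p = 5.37e-07). A further probe set of MRPL57 was called the other way, at 1.71. The small subunit protein MRPS31 was the other member called lower, at -0.41 ± 0.13, and its probe sets also had opposite calls.

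In HEY cells with miR-203a, 4 members were called higher and 1 lower, where 5.87% of all tested genes were called higher and 7.32% lower. In SKOV3 cells 4 were higher and 2 lower, against 7.11% and 4.91% of all tested genes. The member medians were 0.08 in HEY and 0.05 in SKOV3 cells. MRPL27 was the single member called higher in all 3 lines, as were 1.25% of all tested genes, and no member was called lower in all 3, against 1.44% of them. MRPL11 and MRPL40 were called in opposite directions in different lines, against 3.02% of all tested genes, and 14 members were called in no line, where 63.3% of all tested genes were called in some line. MRPL27 measured 8.57, 8.49 and 8.36 in HEY miR-203a, against 7.73, 7.94 and 7.98 in HEY miR-NC, and 10.85, 11.10 and 11.19 in SKOV3 miR-203a, against 10.57, 10.46 and 10.61 in SKOV3 miR-NC. MRPL27 differed by 0.59 ± 0.16 in HEY (limma adjusted p = 0.00846) and 0.50 ± 0.16 in SKOV3 cells (limma adjusted p = 0.0304). The treated arrays lay above every control array in both lines, but the SKOV3 call was lost in 5 of 6 fits that each left out 1 array, with adjusted p up to 0.145. The HEY call was lost in 1 of 6, without HEY miR-NC replicate 1, at adjusted p = 0.0577.

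MRPL11, a protein at the base of the ribosome's stalk, went the other way in the ovarian lines. It measured 9.67, 9.70 and 9.80 in SKOV3 miR-203a, against 10.19, 10.25 and 10.16 in SKOV3 miR-NC, and 8.17, 7.98 and 7.77 in HEY miR-203a, against 8.38, 8.34 and 8.41 in HEY miR-NC. Every treated array lay below the controls in both lines, by -0.47 ± 0.13 in SKOV3 (limma adjusted p = 0.0115) and -0.40 ± 0.13 in HEY cells (limma adjusted p = 0.0338). In PC3 cells MRPL11 was higher with miR-203a, at 8.87, 8.74 and 8.39 against 7.83, 7.78 and 7.74 with miR-NC. The SKOV3 call was lost without SKOV3 miR-NC replicate 2, and the HEY call in 5 of 6 such fits. MRPL40 likewise was lower in SKOV3 cells, by -0.42 ± 0.12, and higher in PC3 cells, by 1.34 ± 0.12, and its SKOV3 call was lost in 3 of 6 fits. MRPL19, a large subunit protein at the contact with the small subunit, had the largest difference in SKOV3 cells, 0.76 ± 0.15 (limma adjusted p = 0.000302), followed by MRPL50 at 0.70 ± 0.14 (limma adjusted p = 0.000326). In HEY cells MRPL15 was higher by 0.51 ± 0.12, MRPL17 by 0.49 ± 0.16 and MRPL45 by 0.41 ± 0.13. Leaving out 1 array ended the MRPL17 call in 4 of 6 fits and the MRPL45 call in 3.

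With miR-205 most members were higher than with miR-NC in HEY and PC3 cells, and a smaller share was in SKOV3 cells. The 5′ control probe sets were also higher in HEY and PC3 cells, so RNA length cannot be told apart from the microRNA there. In HEY cells 60 members were higher and 5 lower, where 33.7% of all tested genes were called higher and 32.3% lower. In PC3 cells 55 were higher and 3 lower, against 28.8% and 19.7% of all tested genes. In SKOV3 cells 22 were higher and 5 lower, against 16.9% and 8.83% of all tested genes. Counting both directions, 66%, 48.5% and 25.8% of all tested genes were called in HEY, PC3 and SKOV3 cells. The median differences of the members were 1.17 in HEY, 0.63 in PC3 and 0.17 in SKOV3 cells, against 0.06, 0.06 and 0.03 over all tested genes. With quantile normalization the SKOV3 split was 13 higher and 10 lower, with a member median of 0.02. Of 15484 tested genes, 2018 were then called higher and 1774 lower.

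In HEY cells MRPL27 measured 11.73, 11.73 and 11.66 with miR-205, against 7.73, 7.94 and 7.98 with miR-NC. The groups were far apart, and the difference of 3.82 ± 0.16 was the largest of any member in any comparison of a microRNA with miR-NC, 14.2-fold (limma adjusted p = 9.87e-21). MRPL37, a large subunit protein without a bacterial counterpart, measured 10.59, 10.65 and 10.50 with miR-205, against 6.83, 6.97 and 7.09 with miR-NC. MRPS7, which helps to organise the head of the small subunit, measured 11.57, 11.49 and 11.37 with miR-205, against 8.12, 8.01 and 8.34 with miR-NC. Both stood above their controls on every array, with differences of 3.62 ± 0.18 for MRPL37 (limma adjusted p = 6.52e-19) and 3.32 ± 0.13 for MRPS7 (limma adjusted p = 3.61e-21). MRPL12 followed, at 9.92, 9.68 and 9.07 with miR-205 against 5.90, 6.67 and 6.38 with miR-NC. MRPS34, a small subunit protein specific to mitochondria, averaged 9.59 ± 0.27 with miR-205 and 6.93 ± 0.02 with miR-NC (SD, n = 3 each).

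A few members fell with miR-205 in HEY cells. MRPL42, a mitochondria-specific large subunit protein, measured 10.25, 10.46 and 10.14 with miR-205, against 11.25, 11.36 and 11.20 with miR-NC, a difference of -0.99 ± 0.12 (limma adjusted p = 4.46e-09). MRPL50 was lower by -0.51 ± 0.14, MRPL1 by -0.43 ± 0.10 and MRPS30, a protein of the large subunit despite its name, by -0.34 ± 0.10. MRPL42 and MRPL50 were called in the opposite direction in another line: MRPL42 was higher in PC3 cells by 0.29 ± 0.12, and MRPL50 in SKOV3 cells by 1.40 ± 0.14. The PC3 call of MRPL42 was lost in 3 of 6 fits without 1 array, and its direction turned with the probe set, to -0.30 when its probe sets were averaged and -1.75 without those ending _s_at or _x_at.

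In PC3 cells with miR-205 the same 3 members led as with miR-203a, and these comparisons share their miR-NC arrays. MRPL4 measured 8.82, 8.75 and 9.04 with miR-205, against 6.20, 6.52 and 6.27 with miR-NC, a difference of 2.54 ± 0.23 (limma adjusted p = 3.65e-11). MRPL27 differed by 2.22 ± 0.16, MRPL38 by 2.03 ± 0.22 and MRPS2, a small subunit protein with a bacterial counterpart, by 1.88 ± 0.18. By their brightest probe sets, MRPL57 fell by 0.64 ± 0.09 on the log2 scale, MRPL33 by 0.49 ± 0.11 and MRPL20 by 0.35 ± 0.11, and the MRPL20 call was lost without PC3 miR-205 replicate 2. A further probe set of MRPL57 was called higher here too, at 1.31.

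In SKOV3 cells the members with the largest response to miR-205 were others. MRPL19 measured 10.04, 10.26 and 9.82 with miR-205, against 8.08, 8.60 and 8.29 with miR-NC, a difference of 1.72 ± 0.15 (limma adjusted p = 3.53e-11). MRPL50 measured 9.88, 10.27 and 9.60 with miR-205, against 8.46, 8.55 and 8.54 with miR-NC, a difference of 1.40 ± 0.14 (limma adjusted p = 6.37e-10). Neither pair of groups overlapped. MRPL30 was higher by 1.25 ± 0.16, and MRPL44, which has the fold of an RNA-cutting enzyme, by 0.93 ± 0.16. MRPL16 fell by 0.72 ± 0.16, MRPL33 by 0.70 ± 0.11, MRPS16 by 0.48 ± 0.13 and MRPL15 by 0.37 ± 0.12, all on the log2 scale. The second probe set of MRPS16 had the opposite call, 0.49, and the MRPL15 call was lost in 3 of 6 fits without 1 array. MRPL12 and MRPS12, which were among the members with large differences in HEY cells, differed by 0.28 ± 0.20 and -0.06 ± 0.19 in SKOV3 cells and were not called.

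With miR-205, 13 of 75 members were called higher in all 3 lines, as were 2.79% of all tested genes, and none was called lower in all 3, against 2.51% of them. They were the small subunit members MRPS2, MRPS9, MRPS18B and MRPS22 and the large subunit members MRPL2, MRPL14, MRPL18, MRPL19, MRPL22, MRPL27, MRPL28, MRPL39 and MRPL46. MRPS9 differed by 2.66 ± 0.13 in HEY, 0.68 ± 0.13 in SKOV3 and 1.32 ± 0.13 in PC3 cells. MRPS22, a small subunit protein specific to mitochondria, differed by 1.03 ± 0.11 in HEY, 0.54 ± 0.11 in SKOV3 and 0.65 ± 0.11 in PC3 cells. The SKOV3 call of MRPS2 was lost without SKOV3 miR-NC replicate 3. By its brightest probe set MRPL19 belongs here, though another was called lower in HEY and PC3 cells. Probe sets of MRPL39 also had opposite calls in HEY and PC3 cells. Another 9 members were called in opposite directions in different lines, against 14.5% of all tested genes, and 5 were called in no line, where 82.3% of all tested genes were called in some line.

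With miR-429 most members were higher than with miR-NC in HEY cells and few were in SKOV3 cells. In PC3 cells as many were called higher as lower. The 5′ control probe sets were lower in HEY miR-429, and RNA length cannot be told apart from the microRNA there either. In HEY cells 58 members were higher and 5 lower, where 21.1% of all tested genes were called higher and 35.8% lower. In SKOV3 cells 11 were higher and 1 lower, against 15% and 7.24% of all tested genes. In PC3 cells 16 were higher and 16 lower, against 16.4% and 29.5% of all tested genes. Counting both directions, 56.9%, 22.2% and 45.9% of all tested genes were called in HEY, SKOV3 and PC3 cells. The member medians were 0.98 in HEY, 0.13 in SKOV3 and 0.01 in PC3 cells. The medians over all tested genes were -0.15, -0.01 and -0.12, so relative to them the members stood 1.13, 0.14 and 0.13 higher. The PC3 split depended on the scaling. It was 43 higher and 4 lower after subtracting each array's median, which placed the median of all tested genes at 0.29. Under that setting 6380 of 15480 tested genes were called higher and 1861 lower. With quantile normalization the PC3 split was 10 higher and 12 lower, against 2264 and 2707 of 15484 tested genes. The SKOV3 split was 9 higher and 6 lower with quantile normalization, against 1839 and 1596 of 15484 tested genes.

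MRPL37 led in HEY cells, at 10.08, 10.04 and 10.06 with miR-429 against 6.83, 6.97 and 7.09 with miR-NC. The treated arrays lay far above the controls, a difference of 3.10 ± 0.18 or 8.57-fold (limma adjusted p = 1.15e-16). MRPL41, a mitochondria-specific large subunit protein, measured 8.54, 9.11 and 8.87 with miR-429, against 6.38, 6.59 and 6.62 with miR-NC. MRPL11 measured 10.75, 10.42 and 10.78 with miR-429, against 8.38, 8.34 and 8.41 with miR-NC. The differences were 2.31 ± 0.23 for MRPL41 and 2.28 ± 0.13 for MRPL11, and MRPL24 followed at 2.26 ± 0.15. MRPS30 fell, at 11.45, 11.44 and 11.32 with miR-429 against 12.09, 12.06 and 12.15 with miR-NC, a difference of -0.69 ± 0.10 (limma adjusted p = 1.4e-07). MRPS35 was lower by -0.61 ± 0.11, MRPS18C by -0.47 ± 0.14 and MRPL43 by -0.28 ± 0.11. The MRPS18C call was lost without HEY miR-429 replicate 1 and the MRPL43 call in 4 of 6 fits without 1 array.

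In SKOV3 cells with miR-429 the leading members were again MRPL19, MRPL44, MRPL50 and MRPL30, measured against the same miR-NC arrays as with miR-205. MRPL19 measured 10.45, 9.85 and 10.14 with miR-429, against 8.08, 8.60 and 8.29 with miR-NC, a difference of 1.83 ± 0.15 (limma adjusted p = 9.65e-12). MRPL44 measured 7.20, 7.06 and 7.003 with miR-429, against 5.84, 5.93 and 5.69 with miR-NC, a difference of 1.27 ± 0.16 (limma adjusted p = 1.98e-07). The groups did not overlap for either gene. MRPL50 was higher by 1.25 ± 0.14 and MRPL30 by 0.91 ± 0.16. MRPL24 was the single member called lower, by -0.42 ± 0.15, and that call was lost in 4 of 6 fits without 1 array.

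In PC3 cells MRPL54, a mitochondria-specific large subunit protein, fell most with miR-429, at 4.54, 4.66 and 3.59 against 5.33, 5.83 and 5.61 with miR-NC. The difference was -1.33 ± 0.20 (limma adjusted p = 1.59e-06), and the treated arrays lay below 4.89, the median of all values. MRPS25 was lower by -0.93 ± 0.14, and MRPL58, a hydrolase that frees stalled peptides, by -0.76 ± 0.16. MRPL14 was lower by -0.75 ± 0.15. MRPL1 was higher, at 11.03, 11.07 and 10.90 with miR-429 against 10.41, 10.04 and 9.99 with miR-NC, a difference of 0.85 ± 0.10 (limma adjusted p = 5.72e-08). MRPL19 was higher by 0.80 ± 0.15, MRPL50 by 0.72 ± 0.14 and MRPL57 by 0.63 ± 0.09.

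With miR-429, MRPL13, MRPL19 and MRPL50 were called higher in all 3 lines, as were 1.59% of all tested genes, and no member was called lower in all 3, against 2.04% of them. Another probe set of MRPL50 was called lower in HEY cells. The MRPL13 call was lost in SKOV3 cells without SKOV3 miR-429 replicate 1, and in PC3 cells in 2 of 6 fits. The HEY call of MRPL50 was lost in 2 of 6. A further 19 of 75 members were called in opposite directions in different lines, as were 16.7% of all tested genes. Another 4 were called in no line, where 80.8% of all tested genes were called in some line. MRPS25 differed by 2.04 ± 0.14 in HEY and -0.93 ± 0.14 in PC3 cells. MRPS7 differed by 1.98 ± 0.13 in HEY and -0.30 ± 0.13 in PC3 cells, and the PC3 call of MRPS7 was lost in 4 of 6 fits without 1 array. Since the PC3 direction moved with the scaling, opposite calls that rest on PC3 cells hold for the scaling as deposited.

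**Figure D3:**
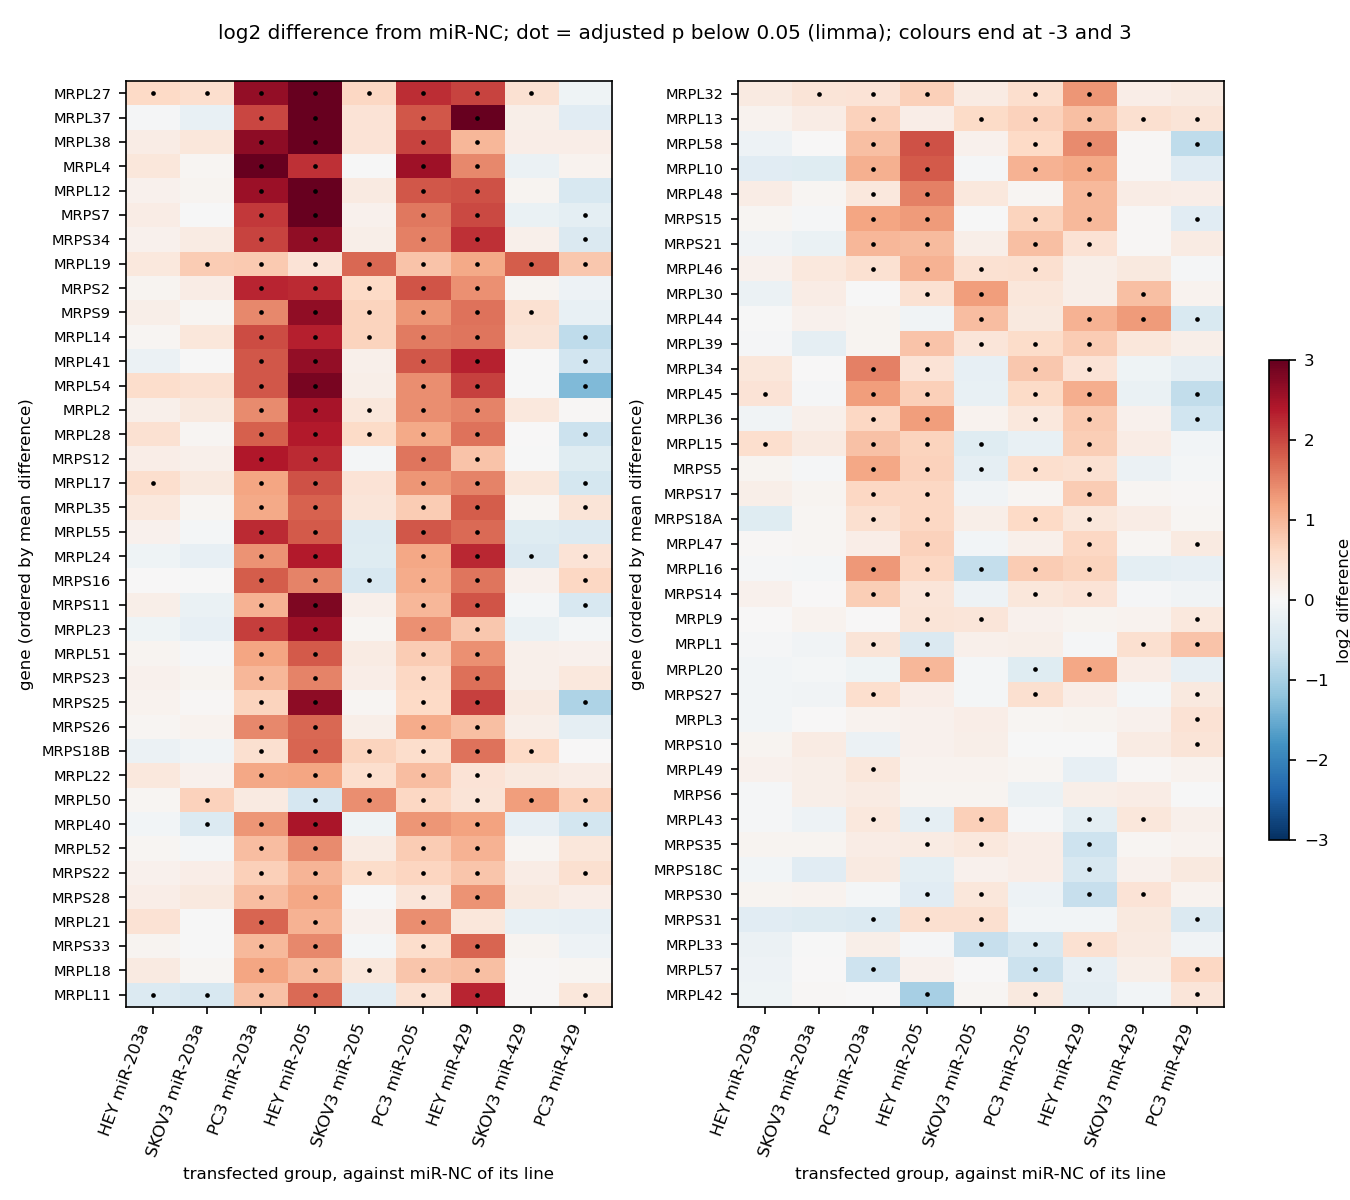
Each cell gives the log2 difference of 1 member (rows, ordered by mean difference) between a microRNA group and miR-NC of its line (columns), and a dot marks an adjusted p below 0.05 by limma. Red fills most rows for PC3 miR-203a, HEY miR-205, PC3 miR-205 and HEY miR-429, with 58, 60, 55 and 58 of 75 members called higher, while the SKOV3 columns are pale except for members such as MRPL19, MRPL50, MRPL44 and MRPL30.

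Most members were thus called higher in 4 groups, which were PC3 cells with miR-203a or miR-205 and HEY cells with miR-205 or miR-429. In all 4 of them 48 of the 75 members were called higher, against 10.6% of all tested genes, and 7 more members were in 3 of them. MRPL3, MRPL57, MRPS6, MRPS10, MRPS18C and MRPS30 were called higher in none. MRPL3, a large subunit protein near the site of peptide bond formation, measured 12.09, 12.33 and 12.49 in HEY miR-205, against 12.10, 12.22 and 12.21 in HEY miR-NC. It measured 11.61, 11.23 and 11.47 in PC3 miR-203a, against 11.51, 11.25 and 11.26 in PC3 miR-NC. These groups overlapped. Of all members, MRPL49 varied least across the 12 transfected groups, with 0.42 between its lowest and highest group mean. MRPL12 and MRPS12 varied most, at 7.51 and 7.50. Separation of the single arrays gave a like picture. All 3 arrays with the microRNA lay above all 3 with miR-NC for 61 members in PC3 miR-203a and below for 3, where 62.7% of all tested genes were separated either way. In HEY miR-205 these were 62 and 6 members (71.8% of all tested genes), in PC3 miR-205 57 and 4 (56.4%) and in HEY miR-429 61 and 7 (63.1%). In SKOV3 cells they were 19 and 9 with miR-203a (35.2%), 41 and 12 with miR-205 (52.7%) and 33 and 7 with miR-429 (49.8%). In HEY miR-203a they were 20 and 6 (41.1%), and in PC3 miR-429 15 and 10 (53.3%). The same 4 groups hold 2 pairs with a shared miR-NC group, so they are not independent of each other.

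**Figure D4:**
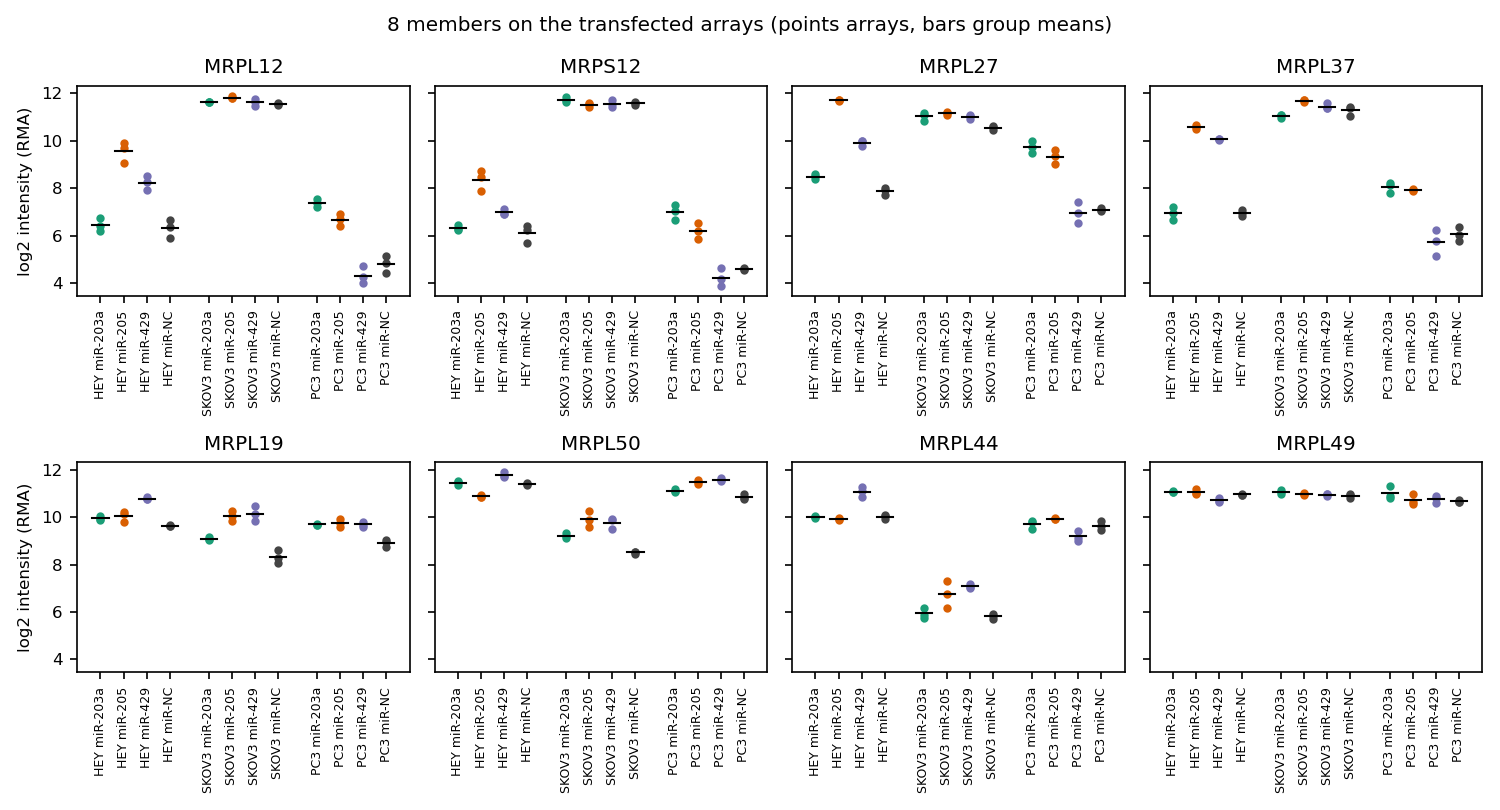
Log2 intensity of 8 members on each transfected array (points) with group means (bars), with the 3 microRNA groups left of miR-NC in each line. MRPL12, MRPS12, MRPL27 and MRPL37 stand low in HEY and PC3 miR-NC and high in every SKOV3 group, MRPL19, MRPL50 and MRPL44 are lowest in SKOV3 miR-NC, and MRPL49 stays within 0.42 by group mean.

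The direct comparison of the microRNAs in PC3 cells asked whether miR-205 and miR-203a differed from each other. With miR-205, 30 members were lower and 2 higher than with miR-203a, where 12% of all tested genes were called lower and 12.9% higher. The member median was -0.25, against -0.03 over all tested genes. Of 60 cytosolic ribosomal proteins 27 were lower and 0 higher, and of 68 nuclear respiratory chain and ATP synthase subunits 34 and 1. The 5′ probe set of GAPDH averaged 8.70 with miR-205 and 9.99 with miR-203a, and that of actin 7.45 and 8.44. The microRNA and RNA length therefore cannot be told apart here. MRPL15 measured 7.91, 7.94 and 8.39 with miR-205, against 9.33, 9.20 and 9.07 with miR-203a, a difference of -1.12 ± 0.12 without overlap (limma adjusted p = 5.69e-09). MRPS12, a protein of the decoding site, was lower by -0.81 ± 0.19 and MRPS16 by -0.71 ± 0.13. MRPL39 was higher by 0.47 ± 0.13 and MRPL50 by 0.37 ± 0.14, and the MRPL50 call was lost in all 6 fits without 1 array. The count of members called fell to 15 without PC3 miR-203a replicate 1, 19 without PC3 miR-205 replicate 1 and 18 without PC3 miR-205 replicate 2.

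Whether a member differed from miR-NC by the same amount in the 3 lines was tested with limma's F-test of the interaction. The response to miR-203a differed between lines for 56 members, or 74.7%, where 45% of all tested genes passed. The response to miR-205 differed for 67 members, or 89.3%, against 69.8% of all tested genes. The response to miR-429 differed for 66 members, or 88%, against 66.6% of all tested genes. MRPS7, for example, passed for miR-205 (limma adjusted p = 9.4e-16). It differed from miR-NC by 3.32 in HEY cells, by 0.13 in SKOV3 cells and by 1.58 in PC3 cells. MRPL37 passed for miR-429 (limma adjusted p = 1.44e-13), with 3.10 in HEY, 0.17 in SKOV3 and -0.34 in PC3 cells. MRPL3, MRPL9, MRPL49 and MRPS6 passed for none of the 3 microRNAs. The 5′ probe set of GAPDH also differed from miR-NC by unequal amounts in HEY, SKOV3 and PC3 cells. In that order these were 0.58, -0.004 and 4.95 with miR-203a, 3.92, 0.01 and 3.66 with miR-205, and -2.11, -0.04 and -0.50 with miR-429. Unlike responses of the lines therefore cannot be told apart from RNA length.

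Under miR-NC the lines themselves differed in these genes. In SKOV3 cells 46 members were higher and 21 lower than in HEY cells, where 35% of all tested genes were called higher and 43.5% lower, 78.5% in all. The member median was 0.65, or 0.78 above the median of all tested genes. In PC3 cells 61 members were lower and 4 higher than in HEY cells, against 31.2% and 25.5% of all tested genes (56.7% in all), with a member median of -0.74. In PC3 cells 54 were lower and 12 higher than in SKOV3 cells, against 36.9% and 44.2% of all tested genes (81.1% in all), with a member median of -1.14, or -1.27 relative to all tested genes.

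MRPS12 measured 11.61, 11.51 and 11.62 in SKOV3 miR-NC, against 6.41, 5.71 and 6.22 in HEY miR-NC, a difference of 5.47 ± 0.19 or 44.3-fold (limma adjusted p = 1.5e-24). In PC3 miR-NC it measured 4.61, 4.53 and 4.63, below the median of all values on every array. MRPL12 behaved alike, at 11.60, 11.50 and 11.53 in SKOV3 miR-NC against 5.90, 6.67 and 6.38 in HEY miR-NC, a difference of 5.23 ± 0.20. MRPL44 went the other way, at 5.84, 5.93 and 5.69 in SKOV3 miR-NC against 10.06, 9.93 and 10.09 in HEY miR-NC, a difference of -4.21 ± 0.16 (limma adjusted p = 6.51e-23). MRPL50 was also lower in SKOV3 than in HEY miR-NC, by -2.88 ± 0.14. Between PC3 and HEY cells MRPL15 was the lowest, by -2.59 ± 0.12, and MRPS2 was lower by -1.98 ± 0.18. MRPS6 was higher in PC3 than in HEY miR-NC by 0.81 ± 0.13 and MRPL39 by 0.76 ± 0.13. The GAPDH middle probe set differed in the same order between the lines, at 13.89 in SKOV3, 9.18 in HEY and 7.20 in PC3 miR-NC, and its part was not tested. The 5′ probe set of actin averaged 13.73 in SKOV3, 6.24 in HEY and 4.72 in PC3 miR-NC. The 3′ probe set of actin averaged 13.65, 13.73 and 13.41 in that order. Line and RNA length therefore cannot be told apart in these comparisons.

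Probe sets of the same gene did not always move together. Of the 37 members with more than 1 probe set, 36 had more than 1 that passed the filter. Opposite calls within a gene were found for 10 of these in PC3 miR-203a, 11 in HEY miR-205, 9 in PC3 miR-205 and 10 in HEY miR-429, and for 2, MRPS12 and MRPS16, in SKOV3 miR-205. There were none in HEY miR-203a, SKOV3 miR-203a, SKOV3 miR-429 and PC3 miR-429. MRPL30, MRPL42, MRPL43, MRPS14 and MRPS25 had opposite calls in each of the 4 groups with most calls. For MRPS25 in HEY miR-205, the brightest probe set differed by 2.69 ± 0.15 and another by -1.41 ± 0.20. For MRPL42 in HEY miR-205, the brightest differed by -0.99 ± 0.12 and the next by 1.32 ± 0.12, so that a gene counted as lower held a probe set that was called higher. MRPL12, in contrast, differed by 3.24 ± 0.20 and 2.36 ± 0.23 on its 2 probe sets in HEY miR-205. The 2 brightest probe sets of MRPL50 in SKOV3 miR-205 differed by 1.40 ± 0.14 and 1.91 ± 0.20. All 3 of MRPL19 were called higher in SKOV3 miR-205, at 1.72 ± 0.15, 1.59 ± 0.25 and 1.02 ± 0.22, but in the other lines they disagreed. The brightest of MRPL19 was called higher and another lower in PC3 miR-203a (0.79 and -0.65), HEY miR-205 (0.41 and -1.22) and PC3 miR-205 (0.86 and -0.61). In HEY miR-429 the brightest of MRPL50 was called higher, at 0.38, and another lower, at -0.95.

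**Figure D5:**
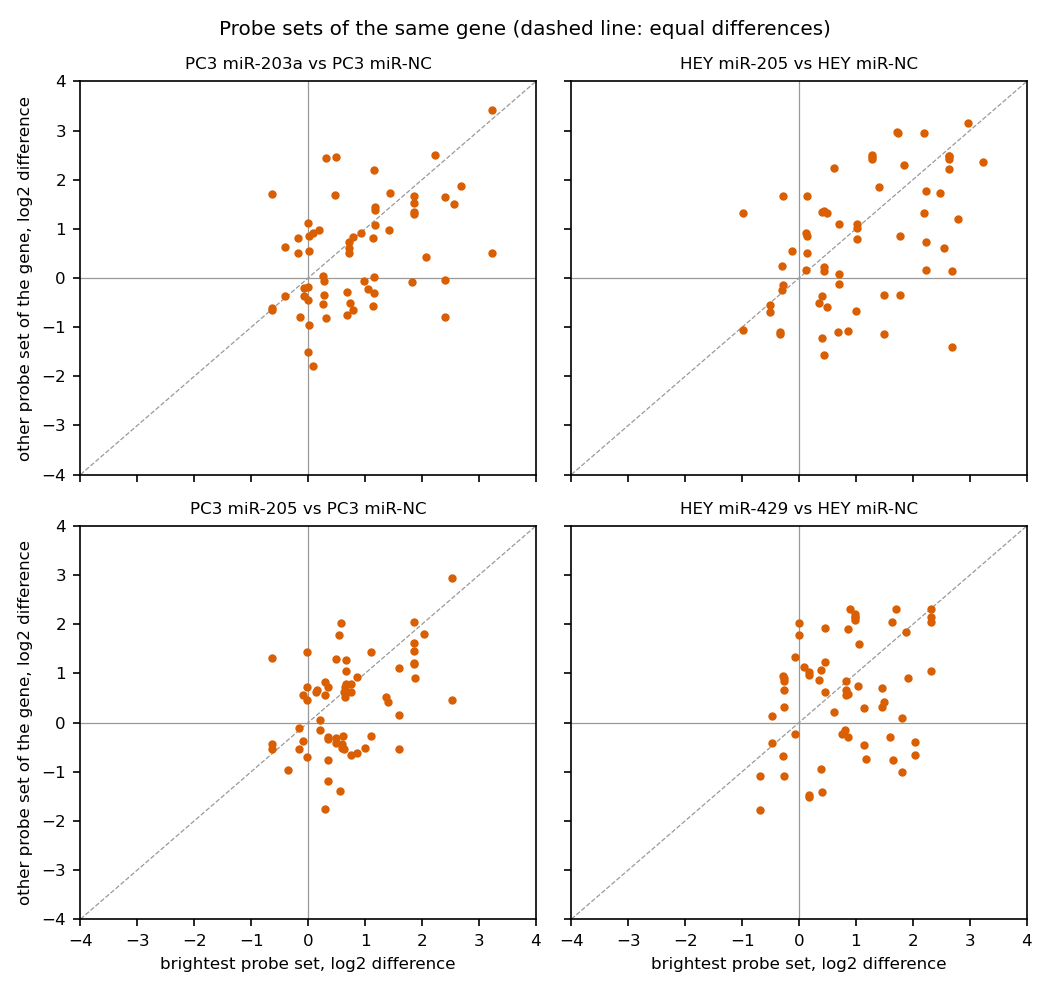
Each point is a further probe set of a member, with the log2 difference of the gene's brightest probe set on the x axis and its own on the y axis, in the 4 groups with the most members called higher. Points below 0 on the y axis and above 0 on the x axis are probe sets that went against the one used, as for MRPS25 in HEY miR-205 at 2.69 and -1.41.

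Genes of related processes were counted in the same 4 groups, in which 31.2% (PC3 miR-203a), 33.7% (HEY miR-205), 28.8% (PC3 miR-205) and 21.1% (HEY miR-429) of all tested genes were called higher. Among 68 nuclear subunits of the respiratory chain and ATP synthase, which work beside the proteins that the mitochondrial ribosome makes, 51 were higher and 3 lower in PC3 miR-203a, with a median of 0.91. In HEY miR-205, 55 of the 68 were higher and 1 lower, in PC3 miR-205 48 and 5, and in HEY miR-429 46 and 2. Of 40 factors for mitochondrial translation or for the assembly of its ribosome, 22 were higher and 9 lower in PC3 miR-203a, 32 and 1 in HEY miR-205, 19 and 3 in PC3 miR-205, and 21 and 4 in HEY miR-429. Of 60 cytosolic ribosomal proteins, 41 were higher and 2 lower in PC3 miR-203a, 32 and 4 in HEY miR-205, 37 and 2 in PC3 miR-205, and 30 and 3 in HEY miR-429. The median differences of the cytosolic proteins were 0.69, 0.37, 0.46 and 0.21 in that order of groups, against 0.93, 1.17, 0.63 and 0.98 for the mitochondrial ones. Of 15 mitochondrial aminoacyl-tRNA synthetases, which charge the transfer RNAs, 5 (33.3%) were higher and 2 lower in PC3 miR-203a, 9 (60%) and 2 in HEY miR-205, 5 (33.3%) and 3 in PC3 miR-205, and 6 (40%) and 3 in HEY miR-429. The share of synthetases was thus near that of all tested genes in both PC3 groups. Of 23 protein import genes, 12 were higher and 4 lower in PC3 miR-203a, 12 and 5 in HEY miR-205, 10 and 4 in PC3 miR-205, and 14 and 4 in HEY miR-429. For 5 mitochondrial transcription genes these counts were 1 and 2, 2 and 3, 1 and 1, and 2 and 1, in the same order of groups. For 5 proteins of the mitochondrial ribosome with other symbols they were 4 and 1, 2 and 0, 3 and 1, and 2 and 0. In SKOV3 cells at most 10 of the 68 respiratory chain genes and 2 of the 60 cytosolic ribosomal proteins were higher with any of the 3 microRNAs. The 10, in SKOV3 miR-205, were 14.7% of the list, against 16.9% of all tested genes. Close shares of the MRPL and MRPS genes were called higher: 37 of 48 MRPL (77.1%) and 21 of 27 MRPS genes (77.8%) in PC3 miR-203a, and 38 (79.2%) and 22 (81.5%) in HEY miR-205.

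The promoters of the members were searched for short motifs, since the members moved together in 4 groups. RefSeq windows of 300 bases, from 250 before to 50 after the start of transcription, were found for 67 of the 75 members. The core CCGGAAG of sites for ETS-family factors was in a window of 29 members (43.3%), against 19.5% of 12317 tested genes. The YY1 motif AAGATGGC was in 20 (29.9%), against 5.6% of tested genes. GCATGCGC, a stretch of the NRF1 motif, was in 6 (8.96%), against 5.57%, and TATAAA was in 3 (4.48%), against 9.5%. Counted by single windows, the ETS core was in 38.6% of the members' 83 windows, against 10.3% of all 35116. These shares were 26.5% and 2.89% for YY1, 7.23% and 3.05% for NRF1, and 3.61% and 11.5% for TATAAA. Both strands were searched, and ETS and YY1 letters overlapped in 0 of the members' 83 windows. The ETS core was in 19 of 43 members called higher in all 4 groups (44.2%) and in 10 of the other 24 (41.7%). The YY1 motif was in 11 of the 43 (25.6%) and 9 of the 24 (37.5%). A match is a run of letters, not a bound site.

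The windows of 3 members are shown, with ETS core and YY1 letters in capitals on either strand. MRPL27 was higher with the microRNA in 8 of 9 comparisons, MRPS34 in all 4 groups named above, and MRPS30 in none of those 4. MRPL27 lies at chr17:50373135-50373434 on the minus strand, MRPS34 at chr16:1773085-1773384 on the minus strand and MRPS30 at chr5:44808697-44808996 on the plus strand (GRCh38.p14). MRPL27 holds 2 ETS cores, MRPS34 holds 3 and MRPS30 holds 1 YY1 motif. These windows do not stand for the other members. MRPL3, also called higher in none of the 4 groups, holds 1 ETS core. MRPL37, which led in HEY miR-429, holds neither motif.
MRPL27: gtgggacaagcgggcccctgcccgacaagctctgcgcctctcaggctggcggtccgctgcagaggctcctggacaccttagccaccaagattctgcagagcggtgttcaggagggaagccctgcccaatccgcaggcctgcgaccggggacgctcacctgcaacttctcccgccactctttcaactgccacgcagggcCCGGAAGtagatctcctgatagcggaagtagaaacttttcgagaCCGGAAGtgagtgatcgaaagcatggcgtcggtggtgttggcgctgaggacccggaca
MRPS34: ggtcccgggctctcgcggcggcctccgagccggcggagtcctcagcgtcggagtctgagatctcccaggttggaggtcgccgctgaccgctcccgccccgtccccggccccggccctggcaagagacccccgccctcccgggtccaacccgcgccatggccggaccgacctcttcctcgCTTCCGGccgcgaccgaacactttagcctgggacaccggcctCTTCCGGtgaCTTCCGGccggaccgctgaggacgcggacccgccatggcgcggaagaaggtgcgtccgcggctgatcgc
MRPS30: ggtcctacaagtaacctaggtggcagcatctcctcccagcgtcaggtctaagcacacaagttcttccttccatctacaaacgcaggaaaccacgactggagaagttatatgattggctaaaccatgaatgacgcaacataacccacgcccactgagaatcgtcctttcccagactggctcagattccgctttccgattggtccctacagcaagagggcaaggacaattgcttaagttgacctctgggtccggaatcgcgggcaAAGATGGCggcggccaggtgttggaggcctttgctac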

How the data were processed

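The values analysed are log2 intensities of 54675 probe sets on 45 arrays, which the authors made with RMA before deposit, per the submitters' processing notes; the RMA version is not given in the sources used here. RNA was amplified with a 3′ kit, per the labels' protocols. The deposited arrays do not share one distribution, and whether they were normalized in a single run is not stated.

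Probe sets were named through the platform annotation: 41097 carried 1 symbol, 1801 several and 11777 none. The brightest probe set by mean over all arrays stood for each gene, and 15511 genes whose highest group mean passed 4.89, the median of all values, were tested. One limma model (3.58.1, R 4.3.3) of 15 group means was fitted over 45 arrays, with 30 residual degrees of freedom, and p-values were adjusted by Benjamini-Hochberg over all genes tested, with a threshold of 0.05. Differences between lines in a response used limma's moderated F-test. The procedure was tested on simulated data.

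The members and gene lists were chosen with earlier results of these data known. The genes named are, per comparison, up to 4 highest and 4 lowest called members without overlap between groups, members called alike or oppositely across lines, the extremes between lines, members with well known roles and members whose probe sets disagree. Alternatives covered normalization, filters, probe sets, the samples fitted, the prior, a replicate block and leaving out each array. The number of arrays limits the precision.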

Additional observations from a re-analysis of the deposited data

Results flagged for a closer look

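The response of many mitochondrial ribosomal protein genes to a microRNA differed between HEY, SKOV3 and PC3 cells by limma's F-test at an adjusted p under 0.05. This held for 56 of 75 members with miR-203a, where 45% of all tested genes passed, for 67 with miR-205, where 69.8% passed, and for 66 with miR-429, where 66.6% passed. The control probe set for the middle of GAPDH also differed from miR-NC by unequal amounts in the 3 lines, and its part in these differences was not tested.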

How the results depend on the processing

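Counts of members called kept within 1.5 times of the reported count in 136 of 170 alternatives that kept all replicates, and the medians of the members moved by less than the spread between replicates in 112 of 130. The cause was not tested for the changes below unless it lies in the setting itself. For miR-203a in HEY cells, 5 members were called, against 8 with quantile normalization, 8 with a stricter filter, 9 with the mean of probe sets, 2 with a fit per line and 10 without the arrays labelled untransfected. A fit per line called 11 members for miR-203a and 19 for miR-429 in SKOV3 cells, and the mean of probe sets called 19 for miR-429 there. With the mean of probe sets 1061 of 14631 tested genes were called higher and 1058 lower for HEY miR-203a. For SKOV3 miR-429 they were 2050 and 1073. Without the arrays labelled untransfected 1254 of 15511 were called higher and 1489 lower for HEY miR-203a. Counts over all genes with a stricter filter or a fit per line are not given here. Without probe sets that may match several transcripts (names ending _s_at or _x_at) fewer members could be tested. Of the 75 brightest probe sets, 44 have such names, so the counts that follow are not out of 75. The share of all tested genes called under this setting is not given here. This left 2 called for HEY miR-203a, 33 for PC3 miR-203a, 35 for HEY miR-205, 16 for SKOV3 miR-205, 30 for PC3 miR-205, 31 for HEY miR-429, 17 for PC3 miR-429, 12 for PC3 miR-205 against miR-203a, 38 for SKOV3 against HEY, 39 for PC3 against HEY and 39 for PC3 against SKOV3, and by the F-test 27, 35 and 37 for miR-203a, miR-205 and miR-429. A 2-fold minimum left 0 for miR-203a in HEY and in SKOV3 cells by limma (17 and 15 members had an unadjusted p under 0.05), 34 for PC3 miR-203a, 42 for HEY miR-205, 3 for SKOV3 miR-205, 24 for PC3 miR-205, 35 for HEY miR-429, 3 for SKOV3 miR-429, 1 for PC3 miR-429, 1 for PC3 miR-205 against miR-203a, 38 for SKOV3 against HEY and 18 for PC3 against HEY. Over all 15511 tested genes the counts in that order were 378, 361, 3240, 5169, 767, 2542, 3392, 665, 1580, 718, 7971 and 3628. Of 2536 values of named members under these settings, 16 reversed. Without _s_at and _x_at probe sets MRPS16 stood at 0.49 in SKOV3 miR-205, -1.15 in HEY miR-205, -0.26 in PC3 miR-205, -0.079 in PC3 miR-203a, -0.28 in HEY miR-429 and -0.029 in PC3 miR-429, MRPL23 at 0.086 in PC3 miR-205 against miR-203a, MRPL20 at -0.68 in HEY miR-205, and MRPL42 at -0.63 in SKOV3 miR-205 and -1.75 in PC3 miR-205. With the mean of probe sets MRPS16 stood at 0.0086 in SKOV3 miR-205, MRPL42 at -0.30 in PC3 miR-205, MRPS11 at 0.42 in SKOV3 miR-429, MRPS18A at -0.58 and MRPS18B at -0.29 in PC3 miR-429. MRPS7 stood at 0.10 in PC3 miR-429 with array medians subtracted. The miR-429 split in PC3 cells was 14 higher and 26 lower with the mean of probe sets, against 1504 and 5453 of 14631 tested genes. With quantile normalization the miR-203a splits were 5 higher and 3 lower in HEY and 4 and 3 in SKOV3 cells. Over all 15484 tested genes these were 929 and 1140 in HEY and 984 and 906 in SKOV3 cells.

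Leaving out each array in turn gave 2 to 4 members for HEY miR-203a, 3 to 5 for SKOV3 miR-203a, 57 to 62 for PC3 miR-203a, 61 to 64 for HEY miR-205, 21 to 23 for SKOV3 miR-205, 55 to 59 for PC3 miR-205, 59 to 62 for HEY miR-429, 8 to 12 for SKOV3 miR-429, 26 to 32 for PC3 miR-429, 15 to 32 for PC3 miR-205 against miR-203a, 63 to 66 for SKOV3 against HEY, 58 to 65 for PC3 against HEY and 64 to 65 for PC3 against SKOV3. By the F-test it gave 51 to 57 for miR-203a, 64 to 68 for miR-205 and 62 to 66 for miR-429. The HEY miR-203a count was 2 without HEY miR-NC replicate 1 or HEY miR-203a replicate 2, and 3 without HEY miR-NC replicate 2 or HEY miR-203a replicate 3. The SKOV3 miR-203a count was 3 without SKOV3 miR-NC replicate 2 or SKOV3 miR-203a replicate 2. Same-numbered arrays did not deviate together in all 3 pairs of any comparison, so the numbers were not taken to pair the samples. With a replicate block 59 members were called for PC3 miR-203a, 64 for HEY miR-205, 58 for PC3 miR-205 and 63 for HEY miR-429, and no count moved by over 1.5 times. The files give no background call per probe set, so what signal over background limits was not assessed beyond the filter.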
